A study of Mus musculus with 8 samples.

Results

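The mitochondrial genome transcripts of sorted mouse heart muscle cells were measured by RNA-seq in 2 groups of 4 libraries. They are the 37 genes that the deposited table places on the mitochondrial chromosome and nowhere else, out of 37991 genes in all: 2 ribosomal RNAs (rRNAs), 13 protein-coding genes and 22 transfer RNAs (tRNAs). They were chosen by this position alone and were read from the raw counts, because the deposited CPM leaves out the 4 genes with the most reads. All mice had the genetic background alpha-MHC MERCREMER MADM, in which a tamoxifen-inducible Cre driven by the promoter of a cardiomyocyte myosin gene recombines a reporter so that cell divisions can leave differently colored daughter cells. In every mouse the heart had received adenovirus carrying 4 cell cycle genes (called 4F), and adult cardiomyocytes were isolated 2 weeks later. The single colored libraries hold cells that, by their labels, performed the cell cycle, and the double colored libraries hold cells given the same 4F treatment that did not. In this reporter system a division can also leave both daughters double colored, so the color marks only a part of the divisions. No group without 4F was analysed here, the ages of the mice are not given in the sources used here, and the labels do not say whether replicates came from separate animals, so p-values measure only how these libraries vary, and that variation may be technical.

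The mitochondrial genome is a small circle that is present in many copies in each cell. Both of its strands are transcribed as long RNAs that run through many genes, and these are cut apart mainly at the tRNAs that lie between the genes. The rRNAs build the mitochondrial ribosome, the tRNAs read the codons on it, and the proteins made there are subunits of complexes I, III, IV and V of oxidative phosphorylation, which provides most of the ATP of a beating heart. All other proteins of mitochondria are encoded in the nucleus. Over evolution, pieces of the mitochondrial genome have also been inserted into the nuclear chromosomes, and some of these copies are still identical to their source.

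Reads of a gene with such a copy can fit both places, so 3 genes are shown beside the closest nuclear transcript of the GENCODE vM21 annotation (mouse build GRCm38, transcripts on the sense strand). The 37 mitochondrial genes were matched to that annotation by gene identifier, and their lengths there equal those in the deposited table. Capitals mark bases at which the pair differs, and positions count from 1 at the first base of the gene. The gene mt-Co2, a core subunit of complex IV, is shown over bases 1 to 60 with Gm28661 of chromosome 1, and the pair has no difference there.
mt-Co2: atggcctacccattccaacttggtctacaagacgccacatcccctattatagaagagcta
Gm28661: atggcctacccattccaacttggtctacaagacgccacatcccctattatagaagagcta
The gene mt-Nd3, a subunit of complex I, is shown over bases 1 to 60 with Gm28438 of chromosome 1, which differs by T3C, the 1 mismatch in the 345 bases aligned.
mt-Nd3: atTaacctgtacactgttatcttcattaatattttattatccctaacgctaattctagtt
Gm28438: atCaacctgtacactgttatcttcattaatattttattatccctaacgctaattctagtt
The gene mt-Cytb, the one mitochondrially encoded subunit of complex III, is shown over bases 2 to 61 with Gm11410 of chromosome 4, which differs there by G14A, C24T and C61T, and at 81 bases of the 1142 aligned.
mt-Cytb: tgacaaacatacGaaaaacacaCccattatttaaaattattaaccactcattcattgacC
Gm11410: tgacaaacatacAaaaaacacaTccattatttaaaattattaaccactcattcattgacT

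The tRNAs with the most reads are shown whole, from the same source, with the anticodon in capitals. They are mt-Tl1 and mt-Tl2 for leucine, mt-Tc for cysteine, mt-Tp for proline, mt-Tq for glutamine and mt-Tm for methionine. Of these, mt-Tl2 is not among the 5 highest and was added after its values were seen, because it was the one tested mitochondrial gene whose fold change had the opposite sign to the others.
mt-Tl1: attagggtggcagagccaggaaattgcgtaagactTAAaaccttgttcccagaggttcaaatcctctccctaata
mt-Tl2: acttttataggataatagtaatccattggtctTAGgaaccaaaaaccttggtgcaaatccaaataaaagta
mt-Tc: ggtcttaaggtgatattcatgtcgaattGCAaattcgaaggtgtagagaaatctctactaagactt
mt-Tp: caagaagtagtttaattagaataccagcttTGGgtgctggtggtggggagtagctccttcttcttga
mt-Tq: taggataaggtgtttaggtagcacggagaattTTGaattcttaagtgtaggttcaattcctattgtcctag
mt-Tm: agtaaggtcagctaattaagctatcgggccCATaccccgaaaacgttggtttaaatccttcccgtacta

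Each library held between 23820700 and 30082278 counted reads. Markers of heart muscle had the largest sums among the listed cell types: the 12 listed cardiomyocyte genes summed to 104000 to 157000 reads per 1000000 nuclear-encoded reads (RPM) in single colored libraries and 149000 to 183000 in double colored libraries. Some markers of other cells differed with color. The 12 macrophage markers summed to 1300 to 2660 RPM in single against 804 to 1150 in double colored libraries, with 3 genes called higher by edgeR where 2.32% of all genes were, and 8 with the replicate number as a block, where 4.97% of all genes were. The 10 lymphocyte markers summed to 110 to 238 RPM in single against 9.87 to 29.97 in double colored libraries, with all 7 that could be tested called higher in both fits; 1 of the 10 had no read in any double colored library. The 8 fibroblast markers summed to 4180 to 13900 RPM in single against 1870 to 4980 in double colored libraries, with 1 called higher (the collagen gene Col1a1) and 4 with the block (also Col1a2, Col3a1 and Postn). Not all members of these lists went the same way. On the log2 scale (single over double colored) the macrophage marker Mrc1 lay at −0.40. The fibroblast markers Tcf21 and Dcn lay at −0.79 and −0.10. The remaining 11 macrophage and 6 fibroblast markers lay above 0. None of the 8 endothelial and 6 smooth muscle markers was called in either fit. Single colored replicate 1 stood apart, with the highest lymphocyte, macrophage and fibroblast sums and the lowest cardiomyocyte sum of the 8 libraries.

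Most reads of every library came from the mitochondrial genome, and the mean share was smaller in the single colored libraries, by less than the test could separate from 0. The mitochondrial share of all counted reads was 80.9%, 85.9%, 77.5% and 85.4% in single colored replicates 1 to 4, against 87.7%, 88.3%, 84.2% and 85.9% in double colored replicates 1 to 4. The groups overlapped, since single colored replicates 2 and 4 lay above double colored replicate 3, and the single colored library was lower within all 4 numbered pairs, with differences of −6.72 to −0.508 percentage points. The means of 82.4% ± 3.97 in single and 86.5% ± 1.88 in double colored libraries (SD, n = 4 each) gave p = 0.143 in a two-sided exact permutation test over libraries, and 0.891 after Benjamini-Hochberg adjustment over the 13 shares and ratios tested. With 4 libraries against 4 this test cannot give a p below 0.0286, and within pairs none below 0.125. The lowest mitochondrial share, in single colored replicate 3, stood beside a cardiomyocyte marker sum of 157000 RPM. Single colored replicate 2, with the highest mitochondrial share of its color, had nearly the same sum, 156300 RPM. Single colored replicate 1 had the next lowest mitochondrial share and the lowest marker sum. The marker with the highest counts, Ttn, weighs most in these sums, and the 12 markers did not all rank the libraries alike. The part of the other cell types in the mitochondrial share was not tested, and in sorted bulk RNA a smaller number of mitochondria-rich cells cannot be told apart from less mitochondrial RNA per cell.

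Protein-coding genes, rRNAs and tRNAs each had a smaller mean share in single colored libraries, and none passed the test. The protein-coding genes took 10.4% ± 0.606 of all reads in single and 11.6% ± 0.655 in double colored libraries (SD, n = 4 each; two-sided exact permutation p = 0.0857, adjusted 0.891), lower in single colored libraries in 4 of 4 pairs, with differences of −1.66 to −0.797 percentage points. The rRNAs took 72.0% ± 3.84 of all reads in single and 74.9% ± 2.49 in double colored libraries (p = 0.257 by the same permutation test) and were lower in 3 of 4 pairs. The tRNAs took 0.0125% ± 0.00171 in single and 0.0129% ± 0.00215 in double colored libraries (exact permutation p = 0.771), lower in 2 of 4 pairs.

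Within the mitochondrial reads, the protein-coding share was smaller in the single colored library of every pair. Protein-coding genes made up 12.3%, 11.7%, 13.4% and 13.2% of mitochondrial reads in single colored replicates 1 to 4, against 12.7%, 12.3%, 14.3% and 14.2% in double colored replicates 1 to 4. The 2 groups overlapped widely, with replicates 3 and 4 high and replicates 1 and 2 low in both colors, and the single colored library was the lower one in 4 of 4 pairs, with differences of −0.952 to −0.413 percentage points. The unpaired comparison gave p = 0.343 and the paired one p = 0.125, the smallest that pairs allow (two-sided exact permutation tests). The rRNA share within mitochondrial reads was the mirror image, 87.3% ± 0.803 in single and 86.6% ± 1.03 in double colored libraries (SD, n = 4 each), higher in single colored libraries in 4 of 4 pairs.

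**Figure D1:**
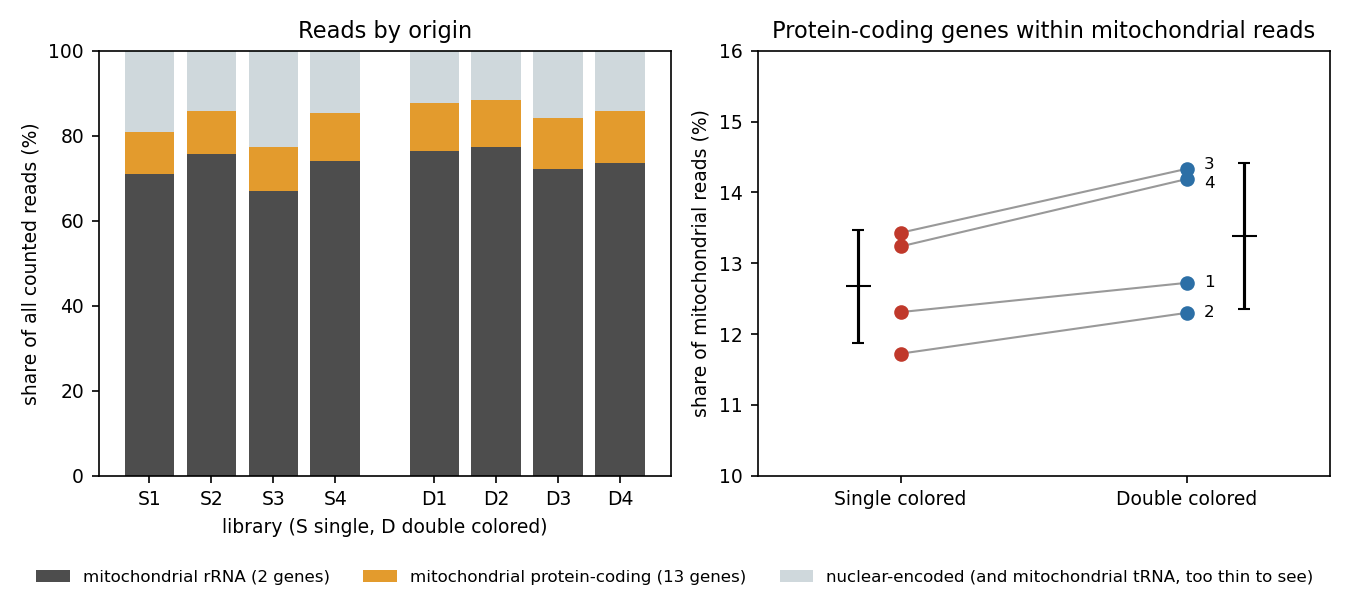
Left, the share of all counted reads (percent) from mitochondrial rRNA, mitochondrial protein-coding genes and nuclear genes in each single (S) and double (D) colored library; rRNA is the largest part of every bar. Right, the protein-coding share of mitochondrial reads (percent, axis from 10 to 16), with lines joining libraries of one replicate number and bars giving the mean ± SD (n = 4): every line is lower on the single colored side, while the 2 groups overlap.

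Both rRNAs took most of the mitochondrial reads. The large rRNA, mt-Rnr2 (ENSMUSG00000064339, mm9 chrM:1094-2675, plus strand), took 58.0%, 59.2%, 56.0% and 56.7% of mitochondrial reads in single colored replicates 1 to 4, against 57.5%, 58.7%, 54.7% and 56.1% in double colored replicates 1 to 4. The small rRNA, mt-Rnr1 (ENSMUSG00000064337, chrM:70-1024, plus strand), took 29.7%, 29.1%, 30.6% and 30.1% in single against 29.8%, 29.0%, 31.0% and 29.7% in double colored libraries. The share of mt-Rnr2 was higher in the single colored library of all 4 pairs, whereas mt-Rnr1 showed no common direction. The ratio of mt-Rnr2 to mt-Rnr1 reads was 1.95, 2.04, 1.83 and 1.88 in single and 1.93, 2.02, 1.76 and 1.89 in double colored libraries (two-sided exact permutation p = 0.743). It followed the replicate number more closely than the color, being highest in both libraries numbered 2 and lowest in both numbered 3.

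Per length, both rRNAs stood far above every protein-coding gene. In reads per kilobase of gene per 1000000 counted reads (RPKM, computed here from the raw counts), mt-Rnr2 averaged 299360 in single and 310333 in double colored libraries, and mt-Rnr1 257630 in single and 270497 in double colored libraries. The protein-coding genes fell into 3 tiers. The first tier held 7 genes, from 5353 to 29659 RPKM over all libraries, the second held mt-Nd3 alone, and the third held 5 genes with almost no reads.

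The highest protein-coding gene was mt-Co1 (ENSMUSG00000064351, chrM:5328-6872, plus strand), the catalytic subunit of complex IV. Its level was 24970, 24740, 24180 and 24380 RPKM in single colored replicates 1 to 4, against 28580, 25970, 26710 and 29660 RPKM in double colored replicates 1 to 4. All 4 single colored libraries lay below all 4 double colored ones. Next came mt-Cytb (ENSMUSG00000064370, chrM:14145-15288, plus strand), with 17840, 17920, 15990 and 18810 RPKM in single against 19440, 19450, 19200 and 20120 RPKM in double colored libraries, again without overlap. As a share of all counted reads these were the only 2 mitochondrial genes that did not overlap between the groups; both had all single colored libraries below the double colored ones, as had 0.136% of all tested genes.

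The genes of complex I followed. For mt-Nd1 (ENSMUSG00000064341, chrM:2751-3707), a membrane subunit near the ubiquinone site, the level was 9063, 10860, 11650 and 12870 RPKM in single and 11380, 12420, 14420 and 12940 RPKM in double colored libraries. For mt-Nd5 (ENSMUSG00000064367, chrM:11742-13565), a proton-pumping subunit, it was 7961, 7819, 10780 and 11440 RPKM in single and 8611, 8446, 12310 and 10920 RPKM in double colored libraries. Both genes overlapped between colors, and mt-Nd5 was higher in replicates 3 and 4 than in 1 and 2 of either color. Of the other pumping subunits, mt-Nd2 stood at 6270, 6175, 5462 and 7099 RPKM in single and 6415, 6754, 7233 and 7827 RPKM in double colored libraries. The level of mt-Nd4 was 5913, 5894, 6079 and 6666 RPKM in single and 6482, 6524, 6960 and 6332 RPKM in double colored libraries. In this order of levels the neighbors mt-Nd6, mt-Nd2 and mt-Nd4 were not separated, since their ranges over libraries overlapped.

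The one protein-coding gene on the minus strand, mt-Nd6 (ENSMUSG00000064368, chrM:13552-14070), a complex I subunit, stood at 5383, 5353, 6804 and 7810 RPKM in single and 5699, 5746, 7785 and 7377 RPKM in double colored libraries. As for mt-Nd5, replicates 3 and 4 were the higher ones in both colors. Its end overlaps that of mt-Nd5 on the opposite strand, and no source used here tells whether counting used strand, so reads of mt-Nd6 and reads of RNA copied from the other strand of the same stretch cannot be told apart. The ratio of mt-Nd6 to mt-Nd5 reads was nearly constant, at 0.192, 0.195, 0.180 and 0.194 in single and 0.188, 0.194, 0.180 and 0.192 in double colored libraries. Of protein-coding mitochondrial reads, mt-Nd6 made up 3.14% ± 0.418 in single and 2.97% ± 0.330 in double colored libraries (SD, n = 4 each; two-sided exact permutation p = 0.486), higher in single colored libraries in 4 of 4 pairs.

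**Figure D2:**
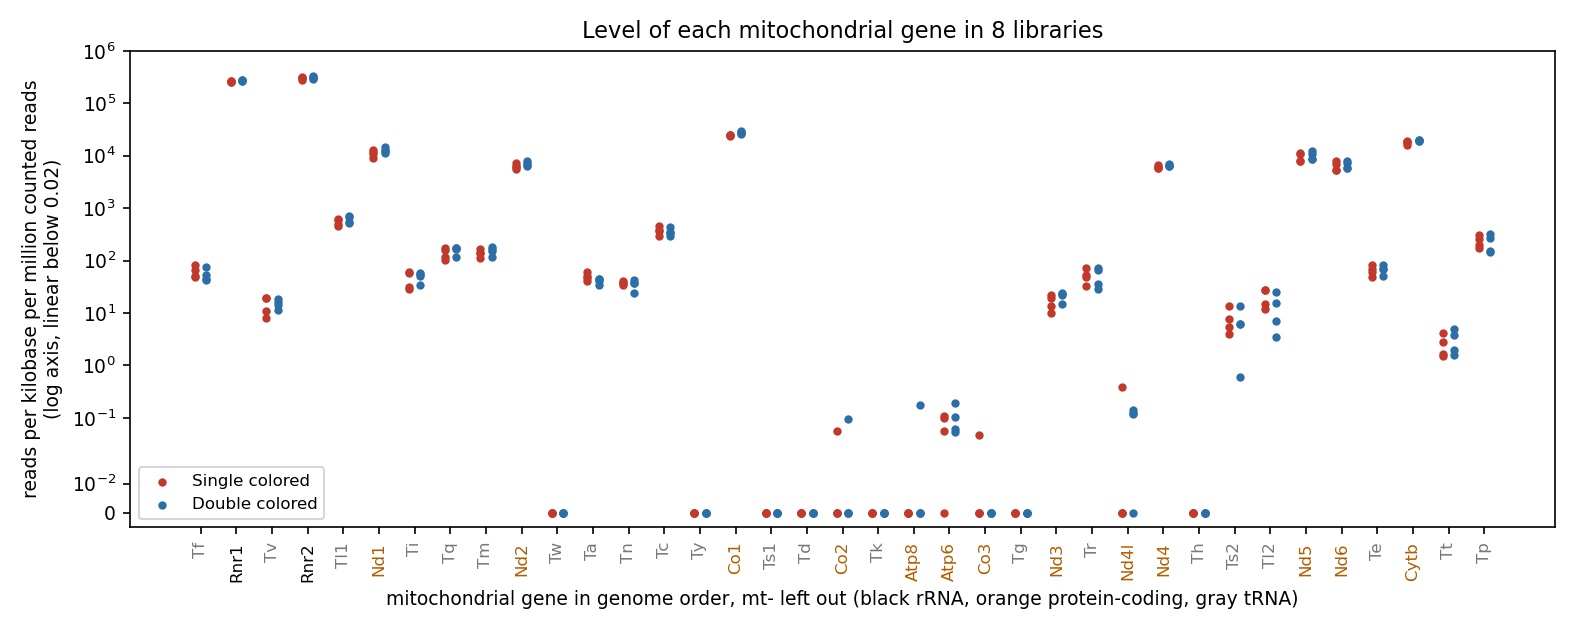
RPKM (log axis, linear below 0.02) of the 37 mitochondrial genes in the order of the genome, one point per library, single colored left of double colored. The genes from mt-Ts1 to mt-Nd4l form a trough between mt-Co1 and mt-Nd4, in which mt-Nd3 and mt-Tr alone reach the levels tested.

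Of the 14 genes too low to test, 9 lay together on the genome. Between mt-Co1 and mt-Nd4 run 11 genes, and together they had 155, 330, 229 and 295 reads in single colored replicates 1 to 4, against 209, 335, 292 and 358 in double colored replicates 1 to 4. The neighboring mt-Co1 alone had 964433 to 1150057 reads in single and 983161 to 1265156 reads in double colored libraries. In this run mt-Co2 and mt-Co3, the other core subunits of complex IV, had 3 reads and 1 read in all 8 libraries together. The complex V subunits mt-Atp6 and mt-Atp8 had 13 reads and 1 read, and the complex I subunit mt-Nd4l had 6. Only mt-Nd3 and mt-Tr of the 11 passed the filter on low counts (edgeR's filterByExpr), whereas 21 of the 26 genes outside the run did.

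Most of these protein-coding genes have a nuclear copy that is identical or nearly so. Over the aligned bases, mt-Co2 is identical to Gm28661 over 681 bases, mt-Co3 to Gm28437 over 783, mt-Atp6 to Gm10925 over 678 and mt-Nd4l to Gm10222 over 294, all on chromosome 1. The gene mt-Nd3 differs from Gm28438 in the aligned stretch only by the T3C shown above, and it had 92, 229, 127 and 170 reads in single against 151, 256, 182 and 219 in double colored libraries. At 16.1 RPKM in single and 21.2 RPKM in double colored libraries, its mean level was 382-fold in single and 311-fold in double colored libraries below that of mt-Nd4. The first 876 bases of mt-Nd4 (63.6% of the gene) are identical to Gm28439, and 502 bases lie outside.

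Of the 50-base words of each gene, the share also found in a nuclear transcript was 98.0% to 100% for mt-Nd3, mt-Nd4l, mt-Co2, mt-Co3 and mt-Atp6. It was 62.2% for mt-Nd4, 51.1% for mt-Co1, 8.19% for mt-Nd2, 7.61% for mt-Nd5 and 0 for mt-Nd1, mt-Nd6 and mt-Cytb. The nuclear copy of mt-Cytb, although it aligns over nearly the whole gene, is spread with mismatches as in the stretch printed above, and mt-Cytb had the second highest protein-coding level. Several genes did not follow this order. The gene mt-Atp8 had 1 read although its closest annotated nuclear transcript, Gm28925, matches only 81.4% of 167 bases, and it shares bases with mt-Atp6. The 7 tRNA genes without a read, of which mt-Ts1, mt-Td, mt-Tk and mt-Tg lie in the run, share no 50-base word with a nuclear transcript, and 6 of the 7 have no aligned one. Copies outside annotated transcripts were not sought, and a shared stretch shorter than 50 bases adds no word. The search therefore could not find unannotated copies of mt-Atp8 or of these tRNA genes. Column names in the deposited table show that reads below a mapping quality of 30 were removed, and aligners give a low quality to reads that fit more than one place. How much of the low counts comes from this filter was not tested.

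Counts of genes with such copies may understate their level by an unknown amount. Spread over the bases outside copies of at least 99% identity, mt-Nd4 stood at 16180 to 18300 RPKM in single and 17380 to 19110 in double colored libraries, and mt-Co1 at 35180 to 36330 in single and 37780 to 43150 in double colored libraries. Counts were available for 4 nuclear copies of at least 95% identity. The copies of mt-Co2, mt-Co3, mt-Atp6, mt-Nd3 and mt-Nd4 named above are not among the genes of the deposited table. Of the 4, Gm13340 of chromosome 2, which is 97.6% identical to mt-Co1, had 2423 to 3047 reads in single and 2839 to 3122 in double colored libraries, and Gm10222 had 71 to 87 in single and 79 to 92 in double colored libraries. Values of mt-Co1, mt-Nd4, mt-Nd3 and these copies are uncertain for this reason.

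**Figure D3:**
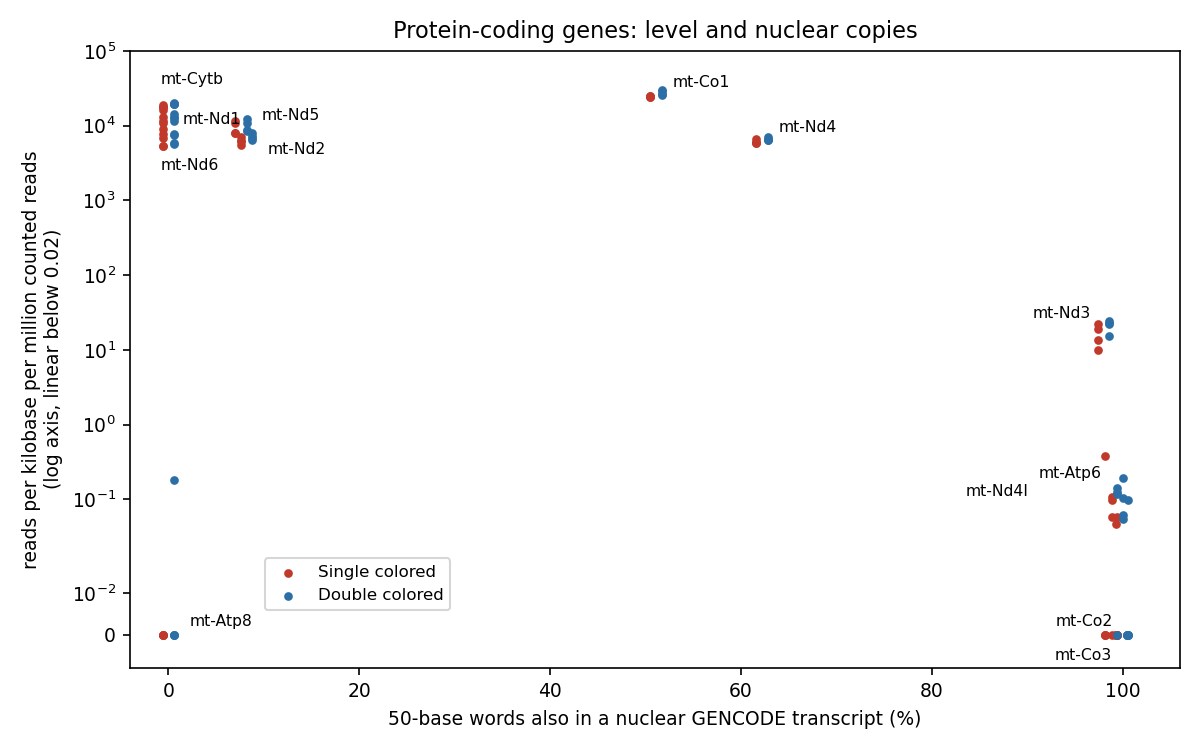
Level of the 13 protein-coding mitochondrial genes (RPKM, log axis, linear below 0.02; one point per library, single colored drawn left of double colored) against the share of their 50-base words that also occur in a nuclear GENCODE transcript (percent). The 5 genes with 98.0% or more reach at most 24.5 on the vertical axis, the 7 with 62.2% or less other than mt-Atp8 start at 5353, and mt-Atp8 lies apart at the lower left. Copies outside annotated transcripts were not sought.

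The tRNAs had few reads. Of the 22 genes, 7 had no read in any library (mt-Tw, mt-Ty, mt-Ts1, mt-Td, mt-Tk, mt-Tg and mt-Th), which allows a share of up to 9.97e-06% to 1.26e-05% of counted reads per library for counting error alone. A further 2, mt-Ts2 with 90 and mt-Tt with 40 reads over all libraries, were too low to test. The 13 tested tRNAs ranged from 3.44 to 692 RPKM over all libraries. Fragments that cover a tRNA can come from uncut precursor RNA as well as from the tRNA itself, and counts do not separate them.

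The highest tRNA was mt-Tl1 (ENSMUSG00000064340, chrM:2676-2750, plus strand), which reads UUA and UUG leucine codons and lies between mt-Rnr2 and mt-Nd1. It had 924, 1110, 1215 and 1178 reads in single and 1129, 1238, 1237 and 1380 reads in double colored libraries, or 541 RPKM in single and 611 RPKM in double colored libraries on average. Next was mt-Tc, with 513, 737, 812 and 644 reads in single and 554, 702, 683 and 609 reads in double colored libraries, or 375 RPKM in single and 355 RPKM in double colored libraries on average. The groups overlapped for both. For mt-Tp there were 352, 342, 466 and 528 reads in single and 277, 313, 503 and 482 reads in double colored libraries, higher in replicates 3 and 4 of either color. For mt-Tq there were 192, 374, 226 and 287 reads in single and 239, 371, 276 and 337 in double colored libraries. For mt-Tm there were 208, 295, 265 and 297 reads in single and 235, 311, 272 and 338 in double colored libraries. For both of these, replicate 1 had the fewest reads in each color. Of the 5 tRNAs with the most reads, mt-Tl1 had a lower share of mitochondrial reads in the single colored library of all 4 pairs and mt-Tc a higher one in all 4. The least read of the tested genes, mt-Tv, mt-Tl2 and mt-Tn, had at most 79 reads in a library.

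Relative to most genes of the cell, 22 of the 23 tested mitochondrial genes had a lower estimate in single colored cells, at a size that the spread between libraries did not separate from 0 in the unpaired test. In edgeR's quasi-likelihood test with TMM scaling (which sets the bulk of genes to no change) and Benjamini-Hochberg adjustment over 12466 genes, none of the 23 tested mitochondrial genes passed an adjusted p of 0.05. Among all genes 2.32% were called higher and 0.160% lower in single colored cells. A log2 fold change below 0 (single over double colored) was also seen for 50.6% of all genes, and the 23 had a median of −0.51 against −0.01 for all genes. An unadjusted p under 0.05 with a lower value in single colored cells was seen for 12 of the 23, against 6.10% of all genes. These genes share their libraries and their precursor RNAs, so they are not independent of each other. Without single colored replicate 3 or without double colored replicate 2 that count was 3, and without double colored replicate 4 it was 6.

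With the replicate number as a block, 8 of the 23 passed, all lower in single colored cells, against 2.57% of all genes called lower in that fit. They were mt-Tl1, mt-Nd3, mt-Tq, mt-Tm, mt-Nd2, mt-Nd1, mt-Co1 and mt-Cytb, with adjusted p between 0.00411 and 0.0497 in edgeR. Libraries with the same number deviated together over all genes, but weakly. For numbers 1 to 4, r was 0.257, 0.126, 0.136 and 0.139, against at most 0.108 between other numbers. The block treats libraries as paired on this ground, which comes from these same data, and the calls with the block rest on it. DESeq2 without the block called 4 of these lower (mt-Tl1, mt-Nd1, mt-Co1 and mt-Cytb; 0.810% of all genes), and edgeR with no filter on low counts called mt-Tl1 and mt-Nd3 (0.688% of all genes). Neither rRNA was called in any of these fits.

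The gene with the smallest p was mt-Tl1. Its TMM-scaled counts (CPM, per 1000000) were 24.1, 38.7, 31.6 and 46.7 in single colored replicates 1 to 4, against 47.2, 56.2, 53.4 and 57.6 in double colored replicates 1 to 4. No single colored library reached the lowest double colored one. Its log2 fold change was −0.60 ± 0.18 (SE; edgeR adjusted p = 0.100), and with the block −0.64 (edgeR adjusted p = 0.00411).

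The next values are those of mt-Co1, with 26790, 40120, 26310 and 38240 CPM in single against 52940, 54740, 42460 and 52070 CPM in double colored libraries. Its log2 fold change was −0.62 ± 0.23 (SE; edgeR adjusted p = 0.190; 0.0459 with the block). For mt-Nd1 the counts were 6023, 10900, 7853 and 12500 CPM in single against 13060, 16220, 14190 and 14080 CPM in double colored libraries, or −0.63 ± 0.24 on the log2 scale (edgeR adjusted p = 0.212; 0.0348 with the block). In both genes all single colored libraries lay below all double colored ones, and within the single colored group replicates 1 and 3 were the lowest. For mt-Cytb they were 14180, 21510, 12880 and 21850 CPM in single against 26660, 30360, 22600 and 26160 CPM in double colored libraries, again without overlap (log2 fold change −0.59 ± 0.23, edgeR adjusted p = 0.234; 0.0497 with the block).

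The lowest fold change was that of mt-Nd3, the gene with the near-identical copy. It had 2.40, 7.99, 3.30 and 6.74 CPM in single against 6.32, 11.6, 7.86 and 9.14 CPM in double colored libraries, and the groups overlapped. Its log2 fold change was −0.78 ± 0.32 (SE; edgeR adjusted p = 0.265; 0.00888 with the block). The rRNAs gave −0.51 ± 0.24 for mt-Rnr1 (edgeR adjusted p = 0.339) and −0.49 ± 0.26 for mt-Rnr2 (edgeR adjusted p = 0.394). In all, 7 of the 23 had every single colored library below every double colored one in TMM-scaled CPM (mt-Rnr1, mt-Tl1, mt-Nd1, mt-Nd2, mt-Co1, mt-Nd4 and mt-Cytb), against 3.78% of all tested genes.

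The one positive value belonged to mt-Tl2, which had 23, 32, 53 and 50 reads in single against 7, 15, 43 and 30 in double colored libraries. Its log2 fold change was 0.30 ± 0.50 (SE; edgeR adjusted p = 0.840), and the groups overlapped. Without double colored replicate 1 the value was −0.009, and all 24 mitochondrial genes tested then lay below 0. The other leucine tRNA, mt-Tl1, was the gene nearest to the threshold in the opposite direction.

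The size of these values depends on the scaling. Scaled by library totals alone, where mitochondrial reads are most of the total, the median log2 fold change of the 23 was −0.08 while that of all genes was 0.48. On both scales the median of the 23 lay below that of all genes, while mt-Tl2 lay above it on both (0.69 with library totals alone). TMM factors ran from 0.953 to 1.44 in single and from 0.733 to 0.972 in double colored libraries, and the 2 libraries with the highest factors, single colored replicates 1 and 3, were also those with the lowest mitochondrial shares. The authors' deposited table, which gives double over single colored cells, has values for 21 of the 37 genes. In it 20 of the 21 have a log2 fold change above 0, and none has an FDR under 0.05 (smallest 0.401, against 0.185 over all genes of that table).

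**Figure D4:**
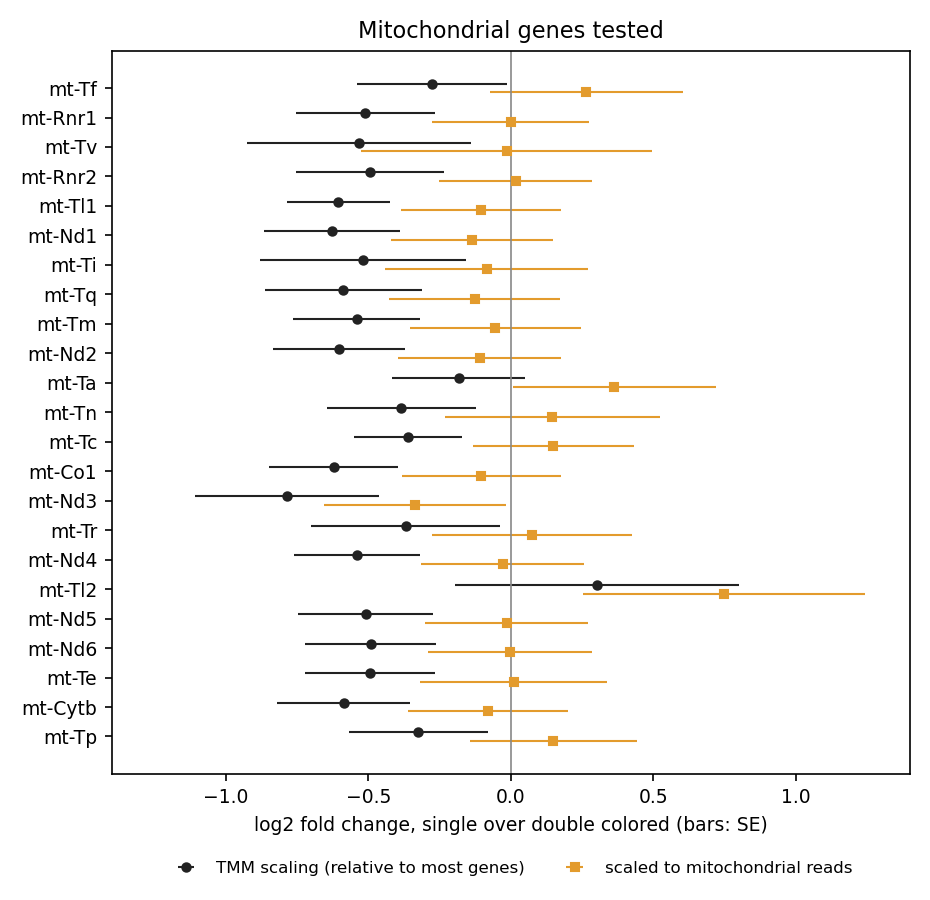
Log2 fold change of the 23 tested mitochondrial genes, single over double colored, with SE bars (edgeR, n = 4 per group). Under TMM scaling (circles) 22 of 23 lie below 0 around a median of −0.51, and scaled to mitochondrial reads (squares) they lie around a median of −0.01.

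When every library was scaled to its mitochondrial reads, 0 of the 23 were called by edgeR, with a smallest adjusted p of 0.259, or 0.0920 with the replicate block (29.9% of all genes higher, 0.0642% lower). None had an unadjusted p under 0.05 without the block, and 1 did with it (mt-Tl2, higher in single colored cells, unadjusted p = 0.0363). The median log2 fold change was −0.01. This fit could have passed only differences well above those measured, since its SE ran from 0.268 to 0.510 and exceeded the size of the log2 fold change in 20 of the 23 genes. For mt-Cytb the SE was 0.282, while the SD of its log2 share over the 8 libraries was 0.0604. That no gene passed therefore says little about differences of the size seen in the shares. On this scale 14.3% of all genes were called higher and 0.00% lower in single colored cells. The shares of mt-Tl1, mt-Nd1, mt-Co1, mt-Nd3 and mt-Cytb were lower in the single colored library of all 4 pairs. For mt-Nd1 the libraries numbered 4 were nearly tied, at 1.443% of mitochondrial reads in single and 1.443% in double colored cells. The shares of mt-Rnr2, mt-Tf, mt-Ta, mt-Tc and mt-Tl2 were higher in all 4 pairs. How many of all genes keep one direction in this way is not given here.

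No difference in the balance among the protein complexes was detected between colors. Complex I genes made up 44.1% ± 3.41 of protein-coding mitochondrial reads in single and 43.5% ± 2.97 in double colored libraries (SD, n = 4 each; exact permutation p = 0.83). The complex III gene mt-Cytb made up 19.4% ± 1.36 in single and 19.4% ± 1.02 in double colored libraries (exact permutation p = 1.0). Complex IV, in effect mt-Co1 alone, made up 36.5% ± 2.41 in single and 37.1% ± 2.22 in double colored libraries (exact permutation p = 0.771). Complex V could not be measured, since its 2 genes had at most 4 reads in a library. Complex I is not whole in these shares either, since mt-Nd3 and mt-Nd4l had few reads. Counts of mt-Nd4 and mt-Co1, which have nuclear copies, may understate their levels. The shares are therefore those of counted reads and not of the true levels of the complexes.

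Most of the variation in the composition of the mitochondrial reads went with the replicate number. Of the variation of a gene's log2 share of mitochondrial reads over the 8 libraries, the number carried a median of 84.7% and the color a median of 6.30% over the 23 genes, with 3 and 1 of 7 degrees of freedom, and the number carried more than the color in 21 of them. With more degrees of freedom, the number would be expected to carry more than the color even without any effect. The same split was not made for other genes. The clearest case was mt-Nd5, whose share of protein-coding mitochondrial reads was 14.6%, 14.2%, 18.9% and 18.5% in single colored replicates 1 to 4, against 14.1%, 14.2%, 18.6% and 16.4% in double colored replicates 1 to 4. Replicates 3 and 4 lay above 1 and 2 in both colors, and the number carried 98.6% of the variation of its share of mitochondrial reads. Its neighbor mt-Nd6 behaved alike, with 2.80%, 2.76%, 3.39% and 3.59% in single and 2.65%, 2.74%, 3.35% and 3.14% in double colored libraries.

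The exceptions were mt-Co1 and mt-Cytb. For mt-Co1 the number carried 32.9% and the color 33.5% of the variation, and for mt-Cytb 31.7% and 49.9%. As shares of mitochondrial reads, mt-Cytb was at 2.52%, 2.39%, 2.36% and 2.52% in single and 2.54%, 2.52%, 2.61% and 2.68% in double colored libraries. Its highest single colored value lay just above its lowest double colored one. The labels do not say what a replicate number stands for, and whether it marks animals, days or library batches was not tested.

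**Figure D5:**
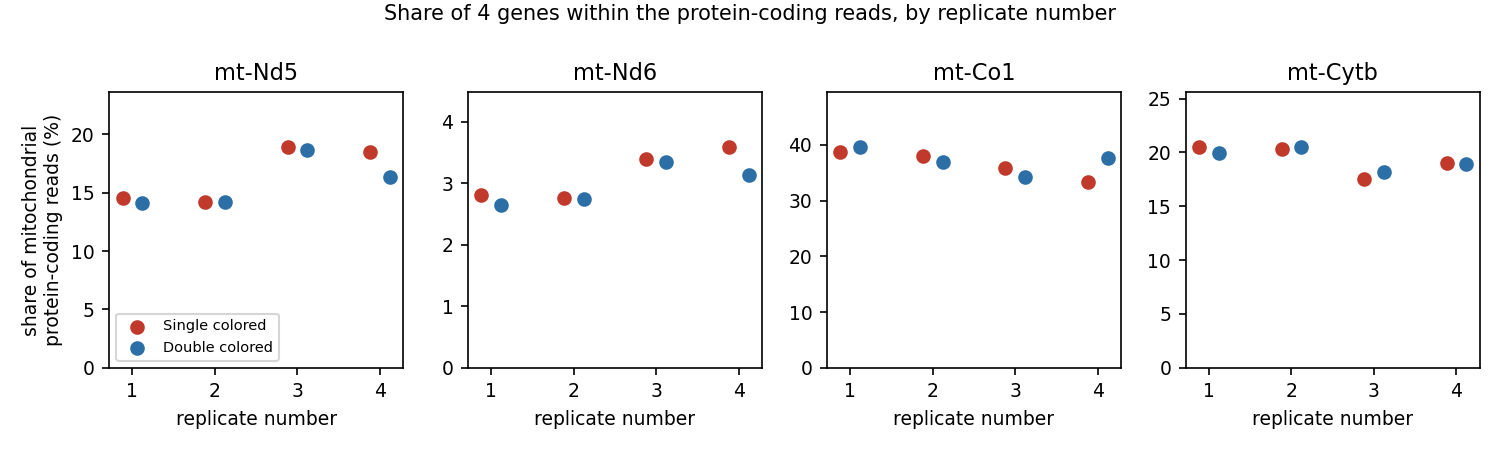
Share of protein-coding mitochondrial reads (percent, axes from 0) of mt-Nd5, mt-Nd6, mt-Co1 and mt-Cytb by replicate number, single colored left of double colored. For mt-Nd5 and mt-Nd6 the points of numbers 3 and 4 lie above those of 1 and 2 in both colors.

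The nuclear partners of the mitochondrially encoded subunits had fold changes of the same sign. All 36 nuclear complex I subunits tested had a log2 fold change below 0, as did all 9 of complex III, 13 of 14 of complex IV and 14 of 15 of complex V. The medians were −0.35 for complex I, −0.40 for III, −0.43 for IV and −0.38 for V, against −0.01 for all genes. None was called by edgeR in the unpaired test, where 0.160% of all genes were called lower; with the block 4, 2, 4 and 3 genes of complexes I, III, IV and V were called lower, against 2.57% of all genes. The 12 cardiomyocyte markers also had 12 of 12 values below 0, with a median of −0.43, none called, and 2 called lower with the block.

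Set against the reads of nuclear subunits, the mitochondrial subunits overlapped between the colors. Complex I had 57.0, 51.7, 43.3 and 59.8 mitochondrial reads per nuclear read in single and 55.2, 65.3, 59.7 and 61.3 in double colored libraries. For complex III these were 63.0, 58.3, 35.1 and 52.3 in single and 63.8, 70.6, 46.8 and 53.2 in double colored libraries. For complex IV they were 77.7, 68.5, 48.3 and 58.5 in single and 72.9, 76.7, 55.9 and 69.9 in double colored libraries. The single colored library had the lower value in 4 of 4 pairs for complex III and in 3 of 4 for complexes I and IV; these ratios were not tested. In all 3 complexes single colored replicate 3 had the lowest value of its color.

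None of the nuclear genes that copy, transcribe and process the mitochondrial genome passed the test. Of 83 such genes tested, 25 had a log2 fold change above 0 and 58 below, with a median of −0.12; 4 had an unadjusted p under 0.05 and none was called by edgeR, against 2.32% of all genes called higher and 0.160% lower. By role, 12 of 15 replication genes, 7 of 9 transcription genes, 26 of 39 RNA processing genes and 13 of 20 tRNA charging genes lay below 0, with medians of −0.19, −0.11, −0.14 and −0.09.

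Among the RNA processing genes the smallest p belonged to Hsd17b10, a subunit of the mitochondrial RNase P that cuts tRNAs at their start. It was measured at 5.64, 8.58, 6.57 and 7.85 CPM in single against 9.50, 8.99, 13.5 and 12.4 CPM in double colored libraries, with no overlap. Its log2 fold change was −0.63 ± 0.19 (SE; edgeR adjusted p = 0.106), and it was called lower with the block (0.0316) and with no filter (0.0458). It also has a role in the breakdown of isoleucine. On the log2 scale Fastk, a regulator of mitochondrial RNA, lay at −0.49 ± 0.20 (edgeR adjusted p = 0.249), the RNA-binding protein gene Ptcd1 at −0.58 ± 0.28 (0.346), and the tRNA methyltransferase gene Trmt5 at −0.45 ± 0.24 (0.399).

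For transcription, the mitochondrial RNA polymerase Polrmt averaged 1.80 ± 0.536 CPM in the single colored libraries and 2.26 ± 0.937 CPM in the double colored ones (SD, n = 4 each), and its log2 value was −0.33 ± 0.34 (edgeR adjusted p = 0.727). The initiation factor Tfb2m had −0.43 ± 0.26 (edgeR adjusted p = 0.467), its paralog Tfb1m, which methylates the small rRNA, −0.47 ± 0.53 (0.750), and Mterf2, a member of the termination factor family, −0.83 ± 0.37 (0.304). None of these 4 passed under any alternative tried.

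For replication, the largest changes in size were of opposite sign. The pyrimidine nucleotide carrier Slc25a33 had a log2 value of −1.01 ± 0.39 (edgeR adjusted p = 0.212) and the helicase-nuclease Dna2, which also acts at nuclear DNA, 1.03 ± 0.53 (0.382). The polymerase subunit Polg was at −0.47 ± 0.28 (edgeR adjusted p = 0.459), and Rrm2b, which supplies deoxynucleotides, at −0.42 ± 0.21 (0.380). Of the tRNA charging genes, Gatc was at −0.37 ± 0.19 and Aars2 at −0.60 ± 0.35, while Fars2 was at 0.44 ± 0.31 and Mtfmt at 0.54 ± 0.43 (edgeR adjusted p between 0.372 and 0.617).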

How the data were processed

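RNA of isolated cells (miRNeasy Micro, amplified with Ovation RNA-seq System v2, per the labels' protocols) was aligned to mm9 with STAR 2.5.2b and counted per gene with featureCounts of Subread, per the submitters' processing notes. The deposited table holds raw counts as whole numbers, entered here under the estimated count type without rounding. Per the file headers, alignments below a mapping quality of 30 were removed, the authors' CPM leaves out 4 genes as too high, all mitochondrial, and 22276 as too low, and the deposited log2 fold changes are double over single colored, with deposited p-values and FDR from a test not given in the sources used here. The authors' CPM was not used, and the feature length column was used for RPKM. The table has 16 columns of per-sample values that were not used.

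Groups came from the labels. Shares and ratios were compared with two-sided exact permutation tests over 4 against 4 libraries (70 groupings) and within the numbered pairs, with Benjamini-Hochberg adjustment over 13. Raw counts of the whole table were fitted with edgeR 4.0.16 in R 4.3.3 (filterByExpr, minimum count 10, TMM, robust quasi-likelihood test, adjusted p under 0.05 over 12466 genes), and again with library sizes set to mitochondrial reads. The fit was tested on simulated counts of independent genes, without pairing and with changes larger than those of the mitochondrial genes. That test therefore does not cover changes of their size. Standard errors derive from the F statistic. Alternatives were DESeq2 1.42.0, other scalings, no filter, a replicate block and each library left out. Libraries of the same number deviated together over all genes (r = 0.257, 0.126, 0.136 and 0.139, against at most 0.108 between other numbers), so the block is given beside results whose call it changes; what a number marks is not given. Nuclear copies were sought with BLAST 2.17.0 (alignments of 50 bases or more) among GENCODE vM21 transcripts.

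All 37 genes are accounted for, with library values for the rRNAs, the protein-coding genes and the 5 tRNAs with the most reads, and, for the nuclear lists, values for up to 4 genes with the smallest p in each. The genes and lists were chosen with earlier results of these data known, and the search for copies, the variation by number and the comparison with nuclear subunits were added after their counts were seen. Limits for genes without a read (3 counts) cover counting error only. Amplified reads without molecular identifiers are not independent molecules.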

Additional observations from a re-analysis of the deposited data

Results flagged for a closer look

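In 5 of 98 groups of 4 libraries examined, 1 library lay farther from the other 3 than Dixon's critical value allows for the gap relative to the range. Chance gives this in about 1 of 20 groups.

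Double colored replicate 1 was low for a pair of mitochondrial genes with few reads. The tRNA gene mt-Tq took 0.0009515% of its mitochondrial reads, against 0.001377% to 0.001441% in the other double colored libraries, and mt-Nd3 took 0.0006011%, against 0.0009078% to 0.0009641%. Single colored replicate 1 was also the lowest of its color for both genes. For mt-Nd4, double colored replicate 3 was high, at 1.14% of mitochondrial reads against 1.016% to 1.019%.

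Among the nuclear lists, complex I subunits summed to 6630 reads per 1000000 nuclear-encoded reads (RPM) in double colored replicate 1, against 6069 to 6115 in the other double colored libraries. Lymphocyte markers summed to 238.2 RPM in single colored replicate 1, against 110.4 to 123.2 in the other single colored libraries.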

How the results depend on the processing

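Fits that pair or filter differently changed how many genes were called, and leaving out a library turned the sign of small differences. With library totals alone 1378 genes were called over the whole table, with no filter 805, with DESeq2 556, with the replicate block 939, and without one library 134 to 304. Of the mitochondrial genes 2 were called with no filter, 4 with DESeq2, 8 with the replicate block and 0 to 1 without one library (mt-Tl1, without single colored replicate 4), against 0 with DESeq2's size factors in edgeR, with TMM from nuclear-encoded genes and with totals alone. Of the machinery genes, 1 was called with no filter and 1 with the replicate block (Hsd17b10 in both). Scaled to mitochondrial reads, no mitochondrial gene was called under any alternative, the block included (0).

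Averaged over the numbered pairs, the differences, single minus double colored, equal those without pairing by arithmetic (mitochondrial share −4.10 percentage points). The replicate block could therefore not change them. Without one library they ran from −5.26 to −2.45 for the mitochondrial share (smallest without single colored replicate 3) and from −1.42 to −0.927 for the protein-coding share, and kept their sign. Also of one sign, but like the mitochondrial share moved by over 1.5 times, were the rRNA share of all reads (−4.25 to −1.33, smallest without single colored replicate 3), the protein-coding share within mitochondrial reads (−1.07 to −0.394) and the rRNA share within them (0.393 to 1.07), both smallest without single colored replicate 2, and the mt-Nd6 share (0.0136 to 0.290, smallest without single colored replicate 4). The differences took both signs for the tRNA share of all reads (−0.00120 to 0.000368), the tRNA share within mitochondrial reads (−0.000752 to 0.00127), the ratio of the rRNAs (−0.0226 to 0.0631), and the complex I (−0.543 to 1.96), complex III (−0.402 to 0.582) and complex IV shares (−1.56 to 0.449); the cause was not tested. Of 322 values of single mitochondrial genes under alternatives, 7 had a turned sign without being called, 6 of them with totals alone. An rRNA share without the authors' too-high genes has no value, because both rRNAs are among them.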
